A study of Homo sapiens with 15 samples.

Results

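Solute carriers are the largest family of membrane transporters in human cells, and the expression of 205 of their genes was followed in THP-1 cells stimulated with bacterial extracellular vesicles (BEVs). Members were the protein-coding genes whose symbol starts with SLC and a number and whose mean CPM over the 15 libraries was at least 2, CPM being the counts of a gene scaled to a library of fixed size. The table of 60286 genes lists 376 protein-coding SLC genes, of which 166 lay under that level, 27 of them without a count. A further 5, SLC7A11, SLC2A1, SLC2A3, SLC2A6 and SLC16A3, were left out by the rule, and 3 of these 5 were up as differentially expressed genes (DEGs) in each of the 4 comparisons with PBS. Members were thus chosen by their overall level, but most of the libraries behind that mean were stimulated. A gene low in PBS cells could enter through the stimulated groups, and 8 members were under 2 CPM in PBS cells. Just outside the threshold stood SLC30A3, SLC29A2 and SLC17A7, with mean CPM of 1.88, 1.952 and 1.982, and just inside it stood SLC35E4, SLC2A14 and SLC25A18, with 2.009, 2.027 and 2.063.

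THP-1 is a wild-type human monocytic leukaemia cell line. Non-stimulated cells received PBS. *E. coli* BEVs were given at a protein concentration of 1 μg/mL, isolated by ultracentrifugation (UC, group EUC) or by the ϵ-poly-L-lysine method (PL, group EPL). *S. aureus* BEVs were given at 10 μg/mL, isolated in the same ways (groups SUC and SPL). The 5 groups had 3 libraries each, so bacterial species and dose changed together and cannot be told apart. RNA was taken 6 hours after the addition, as the study's methods state, while the labels give the time as Day 0. The libraries held 14399421 to 16637345 counted reads. Of 10 monocytic markers, 9 were above 1 CPM in every library and CD68 reached at most 0.192 CPM. T cell, erythroid, epithelial and B cell markers summed to at most 0.986, 0.276, 4.05 and 5.43 CPM in any library. Fibroblast markers summed to 0.64 to 0.941 CPM in PBS cells and 2.06 to 6.95 in stimulated cells, and their part in the results was not tested. COL1A1 had a mean of 0.746 CPM in PBS cells and 1.87 to 4.52 in the stimulated groups. DCN had 0.0196 and 0.751 to 1.52, and COL1A2 was at or near 0 throughout. NK cell markers summed to 23.6 to 29.9 CPM with KLRD1 at or near 0, and endothelial markers to 209 to 309, nearly all of it PECAM1. Libraries EUC3, EPL1 and SUC3 stood apart from the others of their groups: their genes of over 8 kb of exon were lower relative to genes under 2 kb, by 0.3, 0.13 and 0.27 on the log2 scale, against values of -0.07 to 0.09 in the other 12.

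A solute carrier moves a small molecule, such as an amino acid, a sugar, a metal ion, a vitamin or a nucleotide, across the plasma membrane or the membrane of an organelle, mostly by coupling to an ion gradient or by exchange. In monocytes and macrophages, carriers are known to withdraw iron, manganese and zinc from ingested microbes, to supply amino acids to the growing immune response and to pass bacterial peptide fragments from endosomes to cytosolic sensors. The symbol rule also took in 5 genes whose products are not carriers, SLC2A4RG, SLC4A1AP, SLC7A6OS, SLC9A3R1 and SLC9A3R2, which leaves 200 carriers. SLC9A3R1 and SLC9A3R2 are the scaffold proteins NHERF1 and NHERF2, which tether transporters to the cytoskeleton.

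All 205 members were tested, and 189 of them had a mean of at least 2 CPM in every group. Together they took 1.014 to 1.173% of the counted reads of a library. By the mean over all 15 libraries, per kilobase of exon, the 5 highest were the adenine nucleotide carriers SLC25A6 and SLC25A5 of the mitochondrion, at 375 and 153 CPM per kb in PBS cells, the citrate carrier SLC25A1, at 106, SLC3A2, the heavy chain of several amino acid exchangers, at 40.1, and SLC1A5, a glutamine carrier, at 65.4. In PBS cells alone SLC2A4RG (79.0 CPM per kb), SLC25A3 (63) and SLC7A5 (59.3) were above SLC3A2. SLC25A5, SLC25A6 and SLC2A14 have near-identical copies elsewhere in the genome, and their counts are uncertain to that extent.

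Genes were called DEGs where the adjusted p did not exceed 0.01 and the log2 fold change was 1 or more in size (edgeR quasi-likelihood test, Benjamini-Hochberg adjustment over all 17198 genes tested). In EUC 24 members were up and 29 down, or 11.7% and 14.1% of the members, against 9.43% and 5.75% of all genes tested. In EPL the counts were 24 up and 21 down, against 9.38% and 5.15% of all genes. In SUC they were 17 up and 13 down, against 6.82% and 3.06%, and in SPL 21 up and 15 down, against 7.76% and 3.70%. Among all 11430 protein-coding genes at the same mean CPM, the shares down were 5.36, 4.90, 2.90 and 3.56% in the same order, and the shares up were 8.92, 9.04, 6.89 and 7.74%. Of the members up, 6 in each comparison had a compared group under 2 CPM, and of those down 4, 2, 1 and 2 did. These cells are a bulk sample, in which fewer cells of a kind and less RNA per cell cannot be told apart.

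With the adjusted p alone and no minimum fold, falls outnumbered rises. In EUC 42 members were higher and 68 lower, or 20.5% and 33.2%, against 16.5% and 14% of all genes. In SUC 35 were higher and 57 lower, or 17.1% and 27.8%, against 12.4% and 9.15%. The counts were 42 and 63 in EPL, against 16% and 13.2%, and 37 and 57 in SPL, against 13.3% and 10.6%. Among the protein-coding genes at the same mean CPM, 19.2% were higher and 17.1% lower in EUC, 18.6 and 16.4% in EPL. In the *S. aureus* groups the shares were 14.9 and 11.5% (SUC) and 15.7 and 13.4% (SPL). The median log2 fold change of the members was -0.14, -0.13, -0.11 and -0.16 in EUC, EPL, SUC and SPL, while that of all genes tested lay within 0.007 of 0. The 4 comparisons share the PBS libraries.

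In all 4 stimulated groups 17 members were up, or 8.29% of the members against 6.33% of all genes, and 9 were down, or 4.39% against 2.41%. Among those up, SLC1A2, SLC30A4, SLC12A7, SLC12A8, SLC25A27 and SLC41A2 were under 2 CPM in PBS cells and met the member rule through the stimulated groups. SLC6A11, among those down, met it through PBS cells. The shares of all genes are not matched for this. In each of the 26 genes up or down in all 4 groups, all 12 stimulated libraries lay on one side of all 3 PBS libraries. These genes were called on the same libraries, so this adds no support, and the share among all genes was not counted. A further 31 members were DEGs in 1 to 3 of the groups, 148 were DEGs in none, and 0 were up in one group and down in another. Of the 46 numbered subfamilies with a member, 8 held both a gene that rose and a gene that fell (SLC6, SLC9, SLC11, SLC15, SLC16, SLC25, SLC39 and SLC43).

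**Figure D1:**
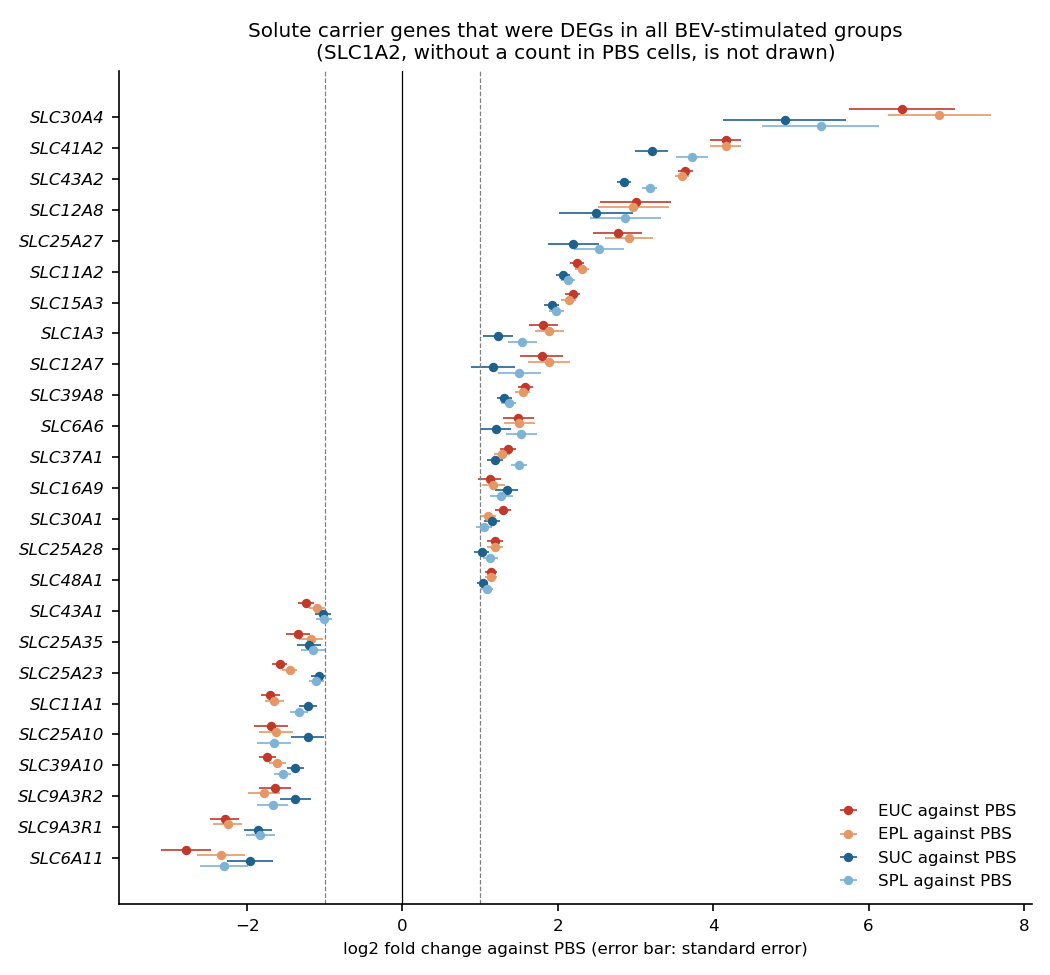
Log2 fold change against PBS (x axis) of the members that were DEGs in all 4 stimulated groups, 1 row per gene, with a point for each of EUC, EPL, SUC and SPL and its SE as a bar. Dashed lines mark a log2 fold change of 1 in size. SLC1A2 is not drawn because it had no count in PBS cells. SLC30A4 and SLC41A2 lie farthest to the right and SLC6A11 farthest to the left.

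The promoters of 3 members that rose in all 4 groups are shown to place them in the genome and because each holds a short motif of a factor known to act on stimulated or metal-loaded cells. They were chosen after their values had been seen. Each is the 250 bases before a RefSeq transcription start in GRCh38.p14, on the minus strand. SLC43A2 lies at chr17:1605035-1605284, SLC30A1 at chr1:211579162-211579411 and SLC39A8 at chr4:102345254-102345503. Capitals mark matches to the AP-1 core (TGANTCA) and to the metal response element core (TGCNCNC) in SLC43A2, to the metal response element core on the opposite strand in SLC30A1, and to the NF-kappa B consensus on the opposite strand in SLC39A8.
SLC43A2: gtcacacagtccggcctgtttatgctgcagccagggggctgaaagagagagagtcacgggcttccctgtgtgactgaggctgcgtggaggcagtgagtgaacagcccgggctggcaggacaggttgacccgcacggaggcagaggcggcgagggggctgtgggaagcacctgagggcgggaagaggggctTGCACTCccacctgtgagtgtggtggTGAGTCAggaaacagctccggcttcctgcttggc
SLC30A1: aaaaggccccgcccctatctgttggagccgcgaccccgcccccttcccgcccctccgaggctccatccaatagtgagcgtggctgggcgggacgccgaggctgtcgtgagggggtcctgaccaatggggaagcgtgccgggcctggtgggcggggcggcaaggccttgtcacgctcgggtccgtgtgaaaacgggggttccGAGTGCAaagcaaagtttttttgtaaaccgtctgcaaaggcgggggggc
SLC39A8: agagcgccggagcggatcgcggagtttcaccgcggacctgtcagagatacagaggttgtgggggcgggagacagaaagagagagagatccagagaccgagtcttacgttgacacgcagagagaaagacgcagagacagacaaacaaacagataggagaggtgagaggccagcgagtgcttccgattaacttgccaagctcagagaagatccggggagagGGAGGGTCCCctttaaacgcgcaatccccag
Both strands were searched. The AP-1 core was in 6.60% of 27305 windows of this kind, in 9 of 171 members with a window and in 1 of the 14 of these that rose in all 4 groups. The NF-kappa B consensus was in 9.57% of all windows, in 23 of the 171 members and in 3 of the 14, SLC11A2, SLC37A1 and SLC39A8. The metal response element core was in 48.4% of all windows, in 93 of the 171 and in 6 of the 14. The NF-kappa B match of SLC39A8 lies 31 to 22 bases before the start, and the AP-1 match of SLC43A2 lies 34 to 28 bases before it. RefSeq lists 3 starts for each of these genes and 1 for SLC30A1. A match is a run of letters and does not show that a factor binds there.

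Amino acid carriers of the cell surface counted 24 members, of which 7 were up and 2 down in at least 1 group. Role groups were formed by subfamily number, so a group can hold genes of another role. SLC7A6OS, which is not a carrier, is among these 24. Of all genes 10.5% were up and 6.79% down in at least 1 group. The carrier highest in CPM among the 4 that rose in all 4 groups was SLC43A2 (ENSG00000167703, chr17:1569268-1628886), a sodium-independent carrier of large neutral amino acids. Its CPM were 40.2, 37.8 and 35.7 in PBS cells, 494, 471 and 454 in EUC, 501, 450 and 431 in EPL, 293, 261 and 268 in SUC, and 370, 326 and 332 in SPL. Every stimulated library was above every PBS library, and every *E. coli* library was above every *S. aureus* library. The log2 fold changes were 3.64, 3.60, 2.85 and 3.18 in EUC, EPL, SUC and SPL (SE 0.0903 to 0.093, adjusted p at most 1.79e-13), that is 12.5-, 12.2-, 7.23- and 9.05-fold. The paralogue SLC43A1, a carrier of the same kind of substrates, moved the other way. It had 52.3, 46.9 and 48.3 CPM in PBS cells and means of 20.9 ± 1.85, 22.9 ± 3.38, 24.3 ± 0.396 and 24.4 ± 1.07 (SD, n = 3) in the stimulated groups in the same order. Its log2 fold changes of -1.24, -1.10, -1.02 and -1.01 lay near the limit of 1. The call was lost without PBS1 in SUC and SPL (-0.97 in both), without EPL2 in EPL (-0.99), without SUC2 in SUC (-1) and without SPL1 in SPL (-0.97).

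The glutamate carriers of the plasma membrane rose as well. SLC1A2 (ENSG00000110436, chr11:35251205-35420063), known as the main glutamate carrier of astrocytes, had 0 counts in all 3 PBS libraries. It had 7.54, 8.20 and 8.94 CPM in EUC, 5.91, 7.71 and 7.56 in EPL, 3.21, 2.37 and 1.91 in SUC, and 2.94, 3.35 and 3.03 in SPL. Against a floor of 3 counts over the PBS group, 0.0607 CPM, these levels were at least 135-, 116-, 41- and 51.2-fold higher, limits that cover counting error only. SLC1A3, the other main glutamate carrier of glia, had 4.35, 5.29 and 5.78 CPM in PBS cells and 18.0 ± 2.24, 19.1 ± 2.68, 12.1 ± 2.93 and 15.0 ± 2.41 in EUC, EPL, SUC and SPL. The log2 fold changes of SLC1A3 were 1.81, 1.89, 1.23 and 1.54 (adjusted p at most 7.13e-05). Per kilobase of exon SLC1A3 was a low gene, at 0.85 CPM per kb in EUC against 44.6 for SLC43A2.

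SLC6A6, which carries taurine, had 65.8, 58.8 and 56.3 CPM in PBS cells. It had 208, 183 and 118 in EUC, 131, 203 and 178 in EPL, 166, 147 and 103 in SUC, and 176, 173 and 174 in SPL, all above PBS. The lowest value of the first 3 of these groups was in EUC3, EPL1 and SUC3, the libraries that stood apart, and what part this has in the values was not tested. The log2 fold changes were 1.49, 1.5, 1.20 and 1.53 (adjusted p at most 0.000142). SLC6A11, a GABA carrier, fell furthest of the members, from 6.65, 4.88 and 5.72 CPM to means of 0.819 to 1.47. SLC6A11 had log2 fold changes of -2.79, -2.34, -1.96 and -2.30 (adjusted p at most 5.96e-05).

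The cationic amino acid carrier SLC7A2, which supplies arginine, was a DEG in EUC and EPL. It had 4.80, 5.35 and 5.07 CPM in PBS cells, 17.2, 18.0 and 15.5 in EUC, 10.4, 16.8 and 15.2 in EPL, 9.56, 6.81 and 7.06 in SUC, and 9.96, 7.86 and 6.27 in SPL. Its log2 fold changes were 1.74 and 1.48 with *E. coli* BEVs, and 0.62 and 0.66 with *S. aureus* BEVs (adjusted p 0.028 and 0.0173). The related arginine carrier SLC7A1 stood far higher, at 210 ± 6.18 CPM in PBS cells, and did not pass the test in any group (log2 fold change -0.11 to -0.01). The heavy chain SLC3A2 went from 256 ± 11.3 CPM in PBS cells to 549 ± 92.0 and 480 ± 94.0 with *E. coli* BEVs (EUC, EPL) and to 410 ± 64.8 and 419 ± 9.48 with *S. aureus* BEVs (SUC, SPL). Its highest value in EUC, EPL and SUC was again in EUC3, EPL1 and SUC3, and without EUC3 its log2 fold change of 1.10 in EUC became 0.95, below the limit of 1. Its light chain SLC7A5, the leucine carrier LAT1, was lower in the means of all 4 groups (283 ± 6.10 CPM in PBS cells, 212 to 232 in the stimulated groups), and passed the adjusted p in SUC (log2 fold change -0.41, adjusted p 0.0024), a call lost without PBS1, PBS3 or SUC3 (adjusted p at most 0.0148). SLC1A5 (log2 fold change -0.20 to -0.07) and the glutamine carrier SLC38A2 (-0.09 to 0.07) did not pass the test.

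**Figure D2:**
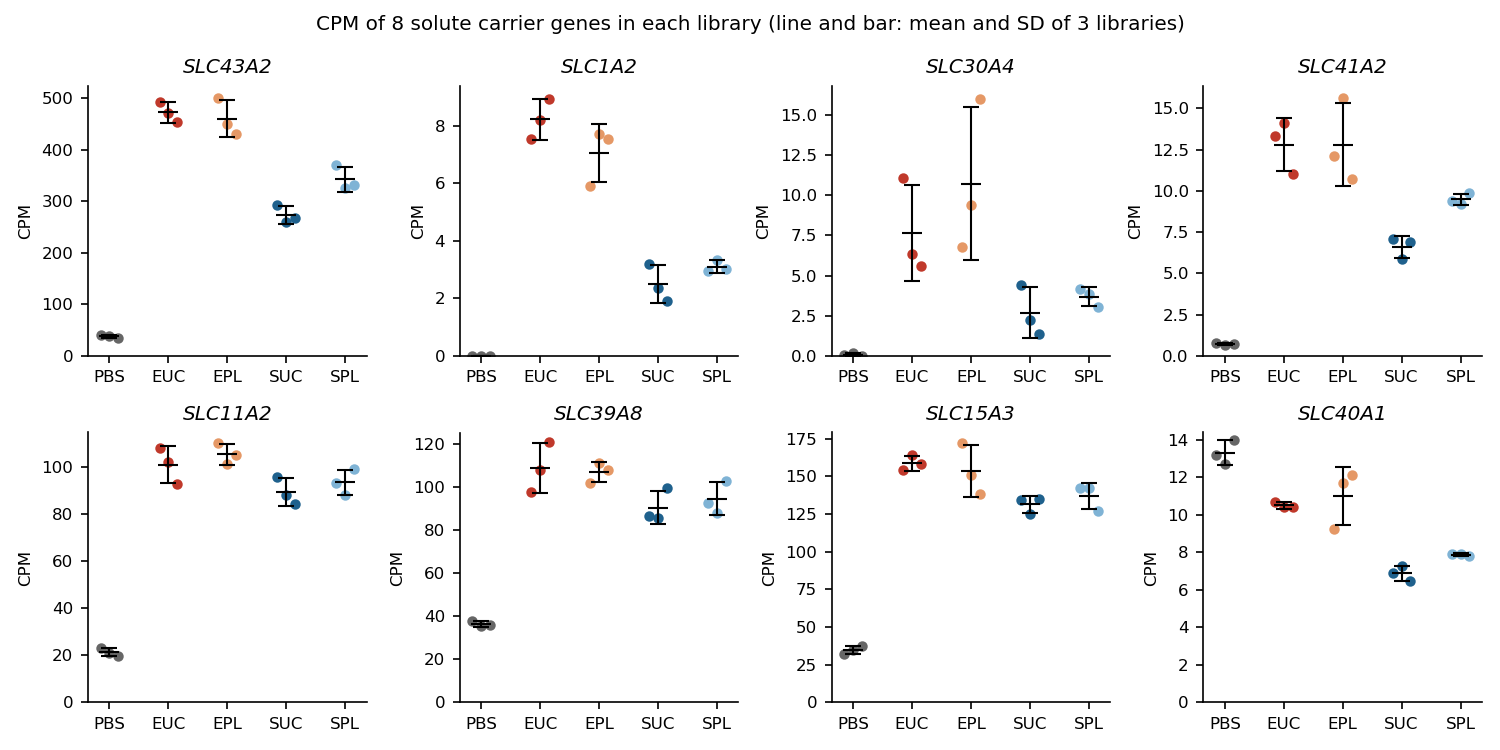
CPM (y axis, linear, from 0) of 8 members in each library by group (x axis). Points are libraries, and the line and bar are the mean and SD of the 3. SLC43A2 lies at 35.7 to 40.2 in PBS cells and at 261 to 501 in stimulated cells, and SLC40A1 is the one of the 8 with PBS above every stimulated library.

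Metal ion carriers counted 27 members. By the DEG limits 7 of them rose and 3 fell in EUC and likewise in EPL, against 9.43% and 5.75% of all genes in EUC and 9.38% and 5.15% in EPL, and 6 rose and 2 fell in SUC and likewise in SPL, against 6.82% and 3.06%, and 7.76% and 3.70%. In all 4 groups at once 6 rose and 2 fell, against 6.33% and 2.41% of all genes, and in at least 1 group 7 rose and 4 fell, against 10.5% and 6.79%, while their median log2 fold change was between 0 and 0.06. Of the 6, SLC30A4 and SLC41A2 met the member rule through the stimulated groups. The pair SLC11A2 and SLC11A1 moved in opposite directions. Both carry divalent metals with protons. SLC11A2 (DMT1, ENSG00000110911, chr12:50979401-51028566) takes iron into cells and out of endosomes, and SLC11A1 (NRAMP1, ENSG00000018280, chr2:218382029-218396894) withdraws metals from phagosomes. SLC11A2 had 23.1, 20.8 and 19.9 CPM in PBS cells, 108, 102 and 92.6 in EUC, 110, 101 and 105 in EPL, 95.6, 88.0 and 84.2 in SUC, and 93.1, 88.1 and 98.9 in SPL. The log2 fold changes were 2.25, 2.31, 2.07 and 2.13 (SE 0.0916 to 0.0919, adjusted p at most 1.25e-11). SLC11A1 had 18.6, 18.7 and 20.2 CPM in PBS cells, 5.59, 6.22 and 5.92 in EUC, 6.69, 6.44 and 5.24 in EPL, 7.45, 8.37 and 8.85 in SUC, and 6.90, 7.99 and 7.93 in SPL. Against PBS it was lower by log2 fold changes of -1.70, -1.65, -1.22 and -1.33 (adjusted p at most 3.53e-07). Per kilobase of exon the genes stood at 2.15 and 2.21 CPM per kb in PBS cells, and at 10.2 and 0.681 in EUC.

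Zinc importers also differed in direction. SLC39A8 (ZIP8, ENSG00000138821, chr4:102251080-102431258), which takes up zinc and manganese, had 37.9, 35.6 and 35.8 CPM in PBS cells. It had 97.9, 108 and 121 in EUC, 102, 111 and 108 in EPL, 86.4, 85.4 and 99.3 in SUC, and 92.7, 88.0 and 103 in SPL, with log2 fold changes of 1.58, 1.55, 1.31 and 1.37 (adjusted p at most 9.48e-09). SLC39A10 (ZIP10), another zinc importer, fell from 38.8, 36.6 and 32.4 CPM to means of 10.8 ± 0.445, 11.8 ± 1.39, 13.8 ± 0.127 and 12.4 ± 1.09, with log2 fold changes of -1.74, -1.61, -1.38 and -1.54. SLC39A14 (ZIP14), the importer closest to SLC39A8 and known to respond to inflammation in liver, was 176 ± 8.35 CPM in PBS cells and 157 to 178 in the stimulated groups (log2 fold change -0.16 to 0.02, adjusted p at least 0.132). The other importers that were DEGs in some groups were SLC39A13, up in EUC and EPL (1.28 and 1.23), SLC39A11, down in EUC (-1.05), and SLC39A4, down in EPL (-1.13).

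The exporter SLC30A1 (ZnT1, ENSG00000170385, chr1:211571568-211579161), the zinc exporter of the plasma membrane, had 73.8, 71.9 and 66.7 CPM in PBS cells, 155, 180 and 187 in EUC, 128, 160 and 166 in EPL, 160, 155 and 157 in SUC, and 139, 139 and 162 in SPL. Its log2 fold changes were 1.29, 1.10, 1.15 and 1.05 (adjusted p at most 4.06e-07), and those in EPL and SPL became 0.97 and 0.94 when libraries were scaled to total counts, and that in SPL was 0.99 without SPL3. SLC30A4 (ZnT4, ENSG00000104154, chr15:45479606-45522755), which loads vesicles with zinc, had 0.064, 0.176 and 0 CPM in PBS cells. It had 11.1, 6.34 and 5.59 in EUC, 6.76, 9.37 and 16 in EPL, 4.44, 2.25 and 1.39 in SUC, and 4.15, 3.86 and 3.03 in SPL. Its fitted log2 fold changes of 6.43, 6.91, 4.92 and 5.38 rest on few reads in PBS cells, and without PBS replicates in turn that of EUC moved between 5.88 and 7.63.

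SLC41A2 (ENSG00000136052, chr12:104801801-104958744), a magnesium carrier, had 0.768, 0.647 and 0.715 CPM in PBS cells, 13.3, 14.1 and 11 in EUC, 12.1, 15.6 and 10.7 in EPL, 7.11, 5.87 and 6.87 in SUC, and 9.39, 9.21 and 9.86 in SPL. All 12 stimulated libraries were above PBS, with folds of 17.9, 17.9, 9.23 and 13.2. SLC48A1 (HRG1), which passes haem out of lysosomes, went from 52.3 ± 2.08 CPM to 107 to 116 (log2 fold change 1.03 to 1.14, adjusted p at most 1e-08). SLC40A1 (ferroportin), the iron exporter, had 13.2, 12.7 and 14 CPM in PBS cells, 10.7, 10.4 and 10.4 in EUC, 9.25, 11.7 and 12.1 in EPL, 6.90, 7.25 and 6.47 in SUC, and 7.92, 7.92 and 7.79 in SPL. Its log2 fold changes were -0.35 and -0.27 with *E. coli* BEVs (adjusted p 0.0204 and 0.0629) and -0.95 and -0.76 with *S. aureus* BEVs (adjusted p 5.98e-06 and 5.67e-05), none of them past the fold limit. Of the haem and folate carrier SLC46A1 2.33 ± 0.814 CPM were found in PBS cells and 2.10 to 2.34 in the others.

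**Figure D3:**
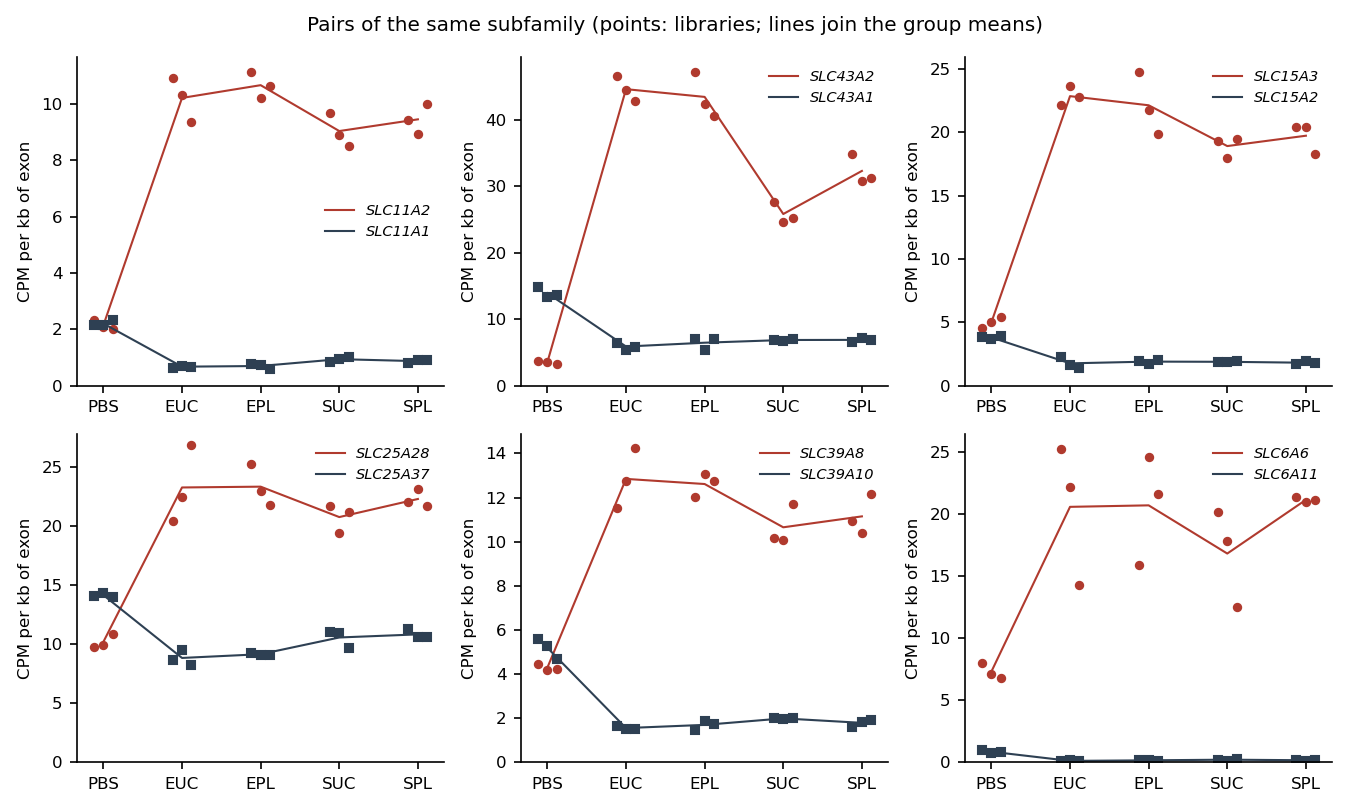
Pairs of members of the same subfamily, in CPM per kb of exon (y axis, linear, from 0) by group (x axis). Points are libraries and lines join the group means. The 6 pairs were picked with their values known because they moved apart, so their opposite directions do not describe subfamilies in general. In each pair one gene lay above PBS and the other below it in all 12 stimulated libraries. Not drawn are subfamilies whose members moved together, such as SLC1, SLC12 and SLC30, each with 2 members up in all 4 groups and 0 down in any.

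Genes of iron handling that are not solute carriers were counted from a list of 20, of which 15 were tested. FTH1, FTL, HMOX1 and STEAP4 were up and STEAP3 was down in all 4 groups, where 6.33% of all genes were up and 2.41% down, and 10 were DEGs in none of them. FTH1, the ferritin heavy chain, went from 166 ± 10.4 CPM to 2340 ± 478 in EUC and 1450 ± 278 in SPL. HMOX1, which breaks haem down, went from 40.1 ± 1.36 to 860 ± 133 and 583 ± 20.2. TFRC, the transferrin receptor, was at 239 ± 5.86 CPM in PBS cells and at 201 to 229 in the others (adjusted p at least 0.0372).

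Carriers of lysosomes and endosomes counted 10 members, of which 1 rose and 4 fell in at least 1 group, where 10.5% of all genes were up and 6.79% down. Members were grouped by subfamily number, so SLC15A2, an importer of the plasma membrane, is counted here. The riser was SLC15A3 (PHT2, ENSG00000110446, chr11:60937060-60952653), which exports histidine and small peptides, muramyl dipeptide among them, from endosomes. Its CPM were 31.9, 34.9 and 37.6 in PBS cells, 154, 164 and 158 in EUC, 172, 151 and 138 in EPL, 134, 125 and 135 in SUC, and 142, 142 and 127 in SPL. The log2 fold changes were 2.19, 2.14, 1.92 and 1.98 (SE 0.0939 to 0.0944, adjusted p at most 4.48e-11). Its endosomal relative SLC15A4 (PHT1) was lower, from 32.3 ± 2.51 CPM to 22.7 to 25.4 (log2 fold change -0.51 to -0.35, adjusted p at most 0.00696). Its call by the adjusted p was lost in EPL without PBS3 or EPL2 (adjusted p at most 0.0124) and in SUC without PBS2, PBS3, EUC2, EPL3, SPL1, SPL3 or any SUC library (at most 0.041). SLC15A2 (PEPT2), a peptide importer, fell from 22.9 ± 0.732 to 10.6 to 11.5, a DEG in EUC, SUC and SPL and just under the fold limit in EPL.

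The other lysosomal genes that fell were SLC66A1, which lets cationic amino acids out of lysosomes, SLC66A3, and SLC17A5, the sialic acid exporter. SLC66A1 went from 87.8 ± 2.82 CPM to 38.9 ± 3.73 and 40.9 ± 8.39 in EUC and EPL, and to 48.8 ± 7.15 and 42.3 ± 2.66 in SUC and SPL. SLC17A5 went from 47 ± 2.6 to 21.4 to 25.5, with log2 fold changes between -1.13 and -0.88. By the adjusted p alone 6 of the 10 were lower in each group, where 14, 13.2, 9.15 and 10.6% of all genes were lower in EUC, EPL, SUC and SPL. The amino acid sensor SLC38A9, grouped with its subfamily among the cell surface carriers, did not pass the test (log2 fold change -0.20 to -0.05), and the proton-coupled carrier SLC36A1 did not either (0.18 to 0.44).

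The mitochondrial SLC25 family is the largest, with 40 members, of which 2 rose and 7 fell in at least 1 group, against 10.5% and 6.79% of all genes. SLC25A28 (mitoferrin 2) and SLC25A37 (mitoferrin 1), which both bring iron into mitochondria, differed in direction. SLC25A28 had 33.5, 34.1 and 37.1 CPM in PBS cells and 79.6 ± 11.3, 79.8 ± 6.15, 71.0 ± 3.95 and 76.2 ± 2.57 in EUC, EPL, SUC and SPL (log2 fold change 1.02 to 1.19, adjusted p at most 3.78e-07). SLC25A37 went from 113 ± 1.52 to 70.8 ± 5.12, 73.3 ± 0.912, 84.6 ± 6 and 86.7 ± 3.37 (log2 fold change -0.68 to -0.39, adjusted p at most 0.000733). SLC25A27, an uncoupling protein family member, rose from 0.507 ± 0.184 CPM to 2.36 to 3.89.

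The falls of this family in all 4 groups were those of SLC25A10, SLC25A23 and SLC25A35. SLC25A10, the dicarboxylate carrier, went from 18.3 ± 0.923 CPM to 5.68 to 7.86. Of its exon bases 46.6% are shared with another gene on the same strand, so its counts cannot be given to it alone. SLC25A23, a calcium-regulated carrier of ATP and phosphate, had 69.7, 68.6 and 64.4 CPM in PBS cells, 23.8, 23.3 and 20.9 in EUC, 23.3, 25.1 and 25.9 in EPL, 33.1, 35.4 and 27.2 in SUC, and 32.4, 30.6 and 30.6 in SPL. The falls came to log2 fold changes of -1.58, -1.45, -1.08 and -1.11, and without SUC3 that of SUC was -0.98. SLC25A1 went from 212 ± 2.91 CPM to 106 to 134 (log2 fold change -1 to -0.66), and its call in EPL was lost without PBS3 (-1), EPL2 (-0.93) or EPL3 (-0.94). The abundant SLC25A6 (-0.21 to -0.06) and SLC25A5 (-0.17 to 0.12) did not pass the test.

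Carriers of vitamins, nucleosides, lipids and organic ions counted 26 members, of which 6 fell and 0 rose by the DEG limits in at least 1 group, against 6.79% and 10.5% of all genes. The falls were 6 in EUC, 4 in EPL, 3 in SPL and 0 in SUC, where 5.75, 5.15, 3.70 and 3.06% of all genes were down. By the adjusted p alone 16 of the 26 were lower in EUC and as many in EPL and in SUC, and 15 were lower in SPL, with medians of -0.62, -0.51, -0.54 and -0.54, where 14, 13.2, 9.15 and 10.6% of all genes were lower. SLC19A1, the reduced folate carrier, had 157, 152 and 163 CPM in PBS cells, 63, 58.1 and 61.1 in EUC, 68.4, 60.6 and 59.7 in EPL, 80.5, 81.5 and 82.9 in SUC, and 74.2, 75.2 and 77.2 in SPL. In log2 fold changes this was -1.37, -1.32, -0.95 and -1.06 (adjusted p at most 1.94e-08). SLC29A1 (ENT1), the main nucleoside carrier of the plasma membrane, went from 142 ± 3.36 CPM to 57.7 to 71.0 (-1.30 to -1). SLC44A1, a choline carrier, went from 180 ± 6.51 to 83.1 ± 1.26, 88.3 ± 4.49, 103 ± 6.69 and 94.1 ± 4.04, a DEG in EUC and in EPL, the latter lost without EPL1 (log2 fold change -1). The others were SLC22A5, a carnitine carrier, SLC27A2, a fatty acid carrier and ligase, and SLC29A4, with log2 fold changes in EUC of -1.07, -1.53 and -1.25.

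**Figure D4:**
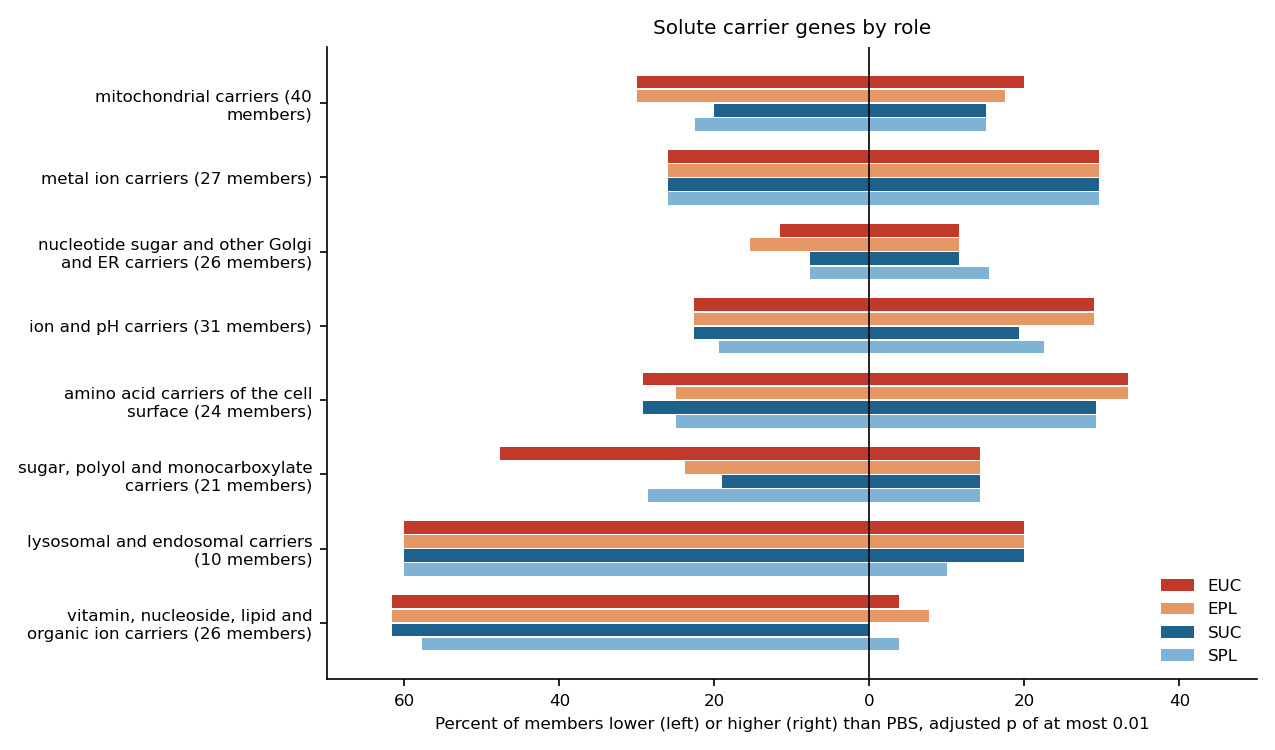
Percent of the members of each role group that were lower (bars to the left) or higher (bars to the right) than PBS at an adjusted p of at most 0.01, with a bar for each of EUC, EPL, SUC and SPL. The bars to the left are longest for the 26 vitamin, nucleoside, lipid and organic ion carriers and the 10 lysosomal and endosomal carriers.

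Sugar, polyol and monocarboxylate carriers counted 21 members, without the 4 glucose and lactate carriers that the rule left out. SLC2A4RG, which is not a carrier, is among the 21 by its subfamily number. The polyol carrier SLC5A3 (myo-inositol) was up in EUC, EPL and SPL, from 41.6 ± 3.07 CPM to 87.5 ± 10.4, 92.0 ± 16.7 and 88.3 ± 7.30. The monocarboxylate family member SLC16A9 rose from 6.36 ± 0.736 to 13.8 to 16.1 in all 4 groups. SLC2A9, the urate carrier, fell from 43.2 ± 0.712 CPM to 17.9 ± 1.76 in EUC and 19.4 ± 2.06 in EPL, and to 23.5 ± 1.07 in SUC and 23.5 ± 1.45 in SPL, a DEG in EUC and EPL. The lactate carrier SLC16A1 was at 146 ± 5.25 CPM in PBS cells and at 116 to 128 in the others, and passed the adjusted p in SPL (log2 fold change -0.33, adjusted p 0.00582), a call lost without PBS1, PBS2, PBS3, EUC2, EPL2, EPL3, SUC2, SPL1 or SPL2 (adjusted p at most 0.0412). The median of the 21 was -0.48, -0.40, -0.34 and -0.40 in EUC, EPL, SUC and SPL.

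Ion and pH carriers counted 31 members, of which 4 rose and 6 fell in at least 1 group, against 10.5% and 6.79% of all genes. Of the 31, SLC4A1AP, SLC9A3R1 and SLC9A3R2 are not carriers. The potassium chloride cotransporter SLC12A7 had 1.09, 1.65 and 1.43 CPM in PBS cells, and 4.88, 4.55 and 5.13 in EUC, 4.33, 6.69 and 4.5 in EPL, 4.58, 2.50 and 2.38 in SUC, and 3.39, 4.38 and 4.14 in SPL. Log2 fold changes of SLC12A7 were 1.79, 1.89, 1.17 and 1.5, and that of SUC lost the call without SUC1 (0.81, adjusted p 0.033), PBS1 (1.02, adjusted p 0.025) or PBS3 (1.19, adjusted p 0.0148). SLC12A8 rose from 0.472 ± 0.502 CPM to 2.76 to 3.92. The calcium exchanger SLC8A1 was a DEG in EUC (log2 fold change -1.05, and -0.97 to -0.96 without EUC2 or EUC3), with log2 fold changes of -0.67, -0.38 and -0.51 in the other groups. The phosphate carrier SLC20A1 was higher in all 4 groups by the adjusted p, from 83.5 ± 3.84 CPM to 115 to 122 (log2 fold change 0.46 to 0.55).

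The largest falls listed under this role were those of the scaffolds, which are not carriers. SLC9A3R1 (NHERF1) had 42.9, 43.7 and 44.8 CPM in PBS cells, 7.93, 7.69 and 11.2 in EUC, 12.7, 7.26 and 7.74 in EPL, 11.5, 11.6 and 13.2 in SUC, and 12.3, 14.7 and 9.93 in SPL. It fell 4.89-, 4.75-, 3.62- and 3.55-fold, and SLC9A3R2 (NHERF2) fell from 18.1 ± 1.80 CPM to 5.27 to 6.92. Of the exon bases of SLC9A3R1 12.18% are shared with a gene on the opposite strand, and the strand setting of the counting is not given in the sources used here.

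Nucleotide sugar and other carriers of the Golgi apparatus and endoplasmic reticulum counted 26 members, of which 2 rose and 0 fell in at least 1 group. Of all genes 10.5% were up and 6.79% down in at least 1 group. Subfamily SLC35 had 21 of these members, some of which are known to bring activated sugars into the Golgi lumen for glycosylation. Of the 21, 0 were DEGs in any of the 4 groups, to be read against the same shares. The 2 risers were the sugar phosphate exchangers SLC37A1 and SLC37A2. SLC37A1 went from 18.9 ± 0.916 CPM to 43.1 to 53.7 in all 4 groups, and SLC37A2 from 34.7 ± 0.228 to 87.8 ± 7.83, 92.5 ± 13.3, 64.4 ± 1.42 and 80.0 ± 2.23, with a log2 fold change in SUC of 0.89.

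To compare the bacteria, the mean of EUC and EPL was set against the mean of SUC and SPL, which differ in dose as well. By the DEG limits 2 members were higher with *E. coli* BEVs, or 0.976% against 0.663% of all genes, and 0 were lower, against 0.0233%. These were SLC30A4 (log2 difference 1.53, SE 0.269, adjusted p 0.00146) and SLC1A2 (1.45, SE 0.138, adjusted p 1.08e-05), the zinc and glutamate carriers that PBS cells hardly expressed. By the adjusted p alone 7 were higher, or 3.41% against 2.87% of all genes, and 4 were lower, or 1.95% against 1.00%. The other 5 higher were SLC7A2 (log2 difference 0.97), SLC41A2 (0.69), SLC43A2 (0.61), SLC40A1 (0.55) and SLC37A2 (0.33). The 4 lower were SLC25A23 (-0.41), SLC19A1 (-0.34), SLC2A9 (-0.33) and SLC25A37 (-0.25). With single libraries left out 3 of the 11 lost the call. SLC25A37 lost it without PBS1, PBS2, PBS3, EUC1, EPL2, EPL3, SUC1, SUC2, SPL1, SPL2 or SPL3 (adjusted p at most 0.0224). SLC2A9 lost it without PBS1, PBS2, PBS3, EUC2, EUC3, EPL1, EPL2, SUC2, SUC3, SPL1, SPL2 or SPL3 (at most 0.0237), and SLC37A2 without EUC1, EUC2 or any *S. aureus* library (at most 0.0188). In 10 of these 11 genes the 6 *E. coli* libraries did not overlap with the 6 *S. aureus* libraries, the exception being SLC37A2. The 11 were picked by a test on these same libraries, so the lack of overlap adds no support. How many of all genes show it was not counted. SLC8A1 was not among the 11. The median difference of the 205 members was -0.02.

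Of the 26 members that were DEGs in all 4 groups, 5 passed the test of the difference between the species (SLC30A4, SLC1A2, SLC41A2, SLC43A2 and SLC25A23). Without EUC3, EPL1 and SUC3, an alternative chosen after seeing the data, 33 members passed that test in place of 11, of which 10 were among the 11. For the 5 of 26 and for the 33 the share of all genes was not counted, so neither can be read as particular to the members.

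**Figure D5:**
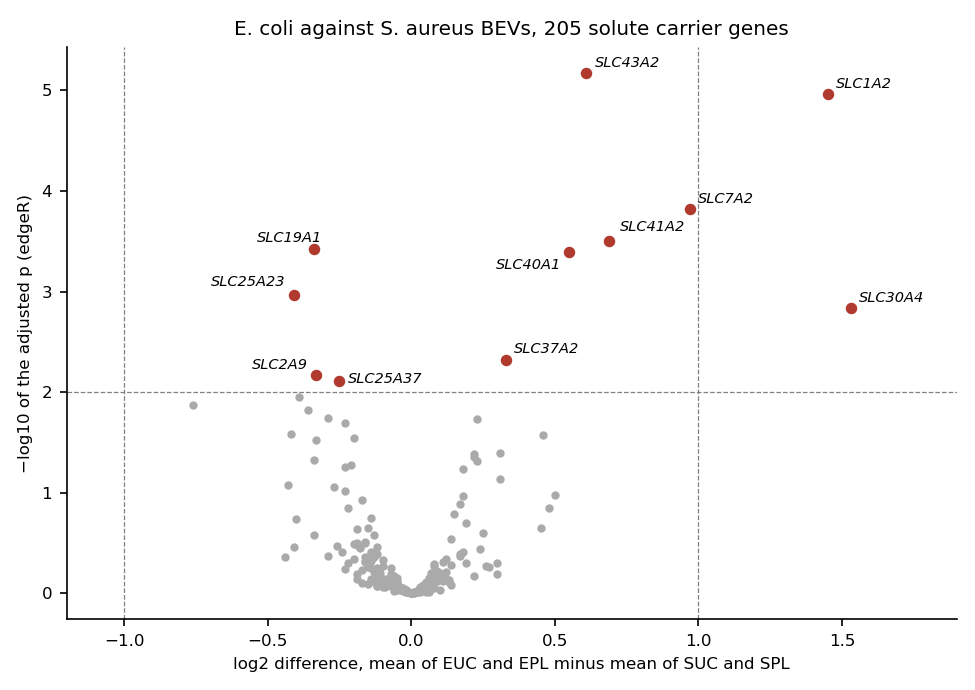
Log2 difference between *E. coli* and *S. aureus* BEVs (x axis) against -log10 of the adjusted p (y axis) for the 205 members, with the 11 that passed an adjusted p of 0.01 named. Dashed lines mark a log2 difference of 1 in size and an adjusted p of 0.01, and SLC30A4 and SLC1A2 alone are past both.

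The isolation methods were compared within each species. Between EPL and EUC 0 members passed the test in edgeR, 0 were DEGs in DESeq2 and 4 had an unadjusted p under 0.05, SLC13A4, SLC35E3, SLC25A18 and SLC8A1. The smallest adjusted p was 0.947, and the log2 differences (EPL minus EUC) ran from -0.56 to 0.58 with a median SE of 0.125. For 199 of the 205 members the difference with 2 SE on each side lay within 1 of 0. Between SPL and SUC 0 members passed in edgeR, against 0.00581% of all genes up, 0 were DEGs in DESeq2 and 14 had an unadjusted p under 0.05. The smallest adjusted p there was 0.727, that of SLC43A2 (log2 difference 0.32), SLC41A2 (0.52) and SLC37A2 (0.31), the differences ran from -0.63 to 0.64, and 196 members lay within 1 of 0 with 2 SE on each side. In a test of whether the difference between methods differed between the species (edgeR interaction), 0 members passed, 0 passed in DESeq2, 12 had an unadjusted p under 0.05 and the smallest adjusted p was 1. With 3 libraries a group, differences of a size near these SE could not be resolved.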

How the data were processed

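RNA of 15 THP-1 libraries was sequenced, 3 for each of 5 groups, which were assigned by titles and treatments in the labels. The authors prepared libraries with an NEB kit, aligned the reads to hg38 and deposited whole-number counts of reads, 1 column per library and 1 row per Ensembl gene, which were not normalized. The submitters' processing notes name FastQC 0.11.5, HISAT2 2.1.0, StringTie 1.3.3b, DESeq 1.28.0 and featureCounts. Strand setting and annotation release were not given in the sources used here. In all, 0 columns of values were left unused.

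The counts were fitted here with edgeR 4.0.16 in R 4.3.3 (filterByExpr, TMM, glmQLFit and glmQLFTest) over all 15 libraries by group, without a replicate block, with Benjamini-Hochberg adjustment over 17198 genes. The biological coefficient of variation common to all genes was 0.118. CPM in the text are divided by TMM-normalized library sizes, except the mean CPM of the member rule, which uses column totals. Values are mean ± SD (n = 3). Replicates were compared and none agreed within sampling noise. Nothing says that they came from separate cultures, so p-values measure the spread between these libraries, which may be technical. The script was tested on simulated data.

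Members, role groups and lists were chosen with earlier results of these data known. The named genes are the 12 largest rises and 12 largest falls (9 exist) among DEGs of all 4 groups with no overlap with PBS, DEGs between species or methods, 33 genes listed by function (32 are members), and the highest per kilobase. Other DEGs named by role were chosen after their values were seen, and 1 of the listed genes is not reported here. Gene positions and exon lengths come from GENCODE release 44, and promoters from RefSeq (171 of 205 members matched). Exon overlap of over 10% with another gene was found for 35 members, among them SLC1A5, SLC19A1, SLC25A5, SLC46A1 and SLC25A35. Alternatives were scaling to total counts or by DESeq2 size factors, DESeq2 1.42.0, no filter, only the groups compared, a replicate block, member rules of 1 or 5 CPM and leaving out each library.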

Additional observations from a re-analysis of the deposited data

Results flagged for a closer look

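For 11 members the effects of the 2 species differed by the test of the difference itself (edgeR, adjusted p at most 0.01, mean of the *E. coli* groups minus mean of the *S. aureus* groups, dose changing with species). Higher with *E. coli* BEVs were SLC30A4 (log2 difference 1.53), SLC1A2 (1.45), SLC7A2 (0.97), SLC41A2 (0.69), SLC43A2 (0.61), SLC40A1 (0.55) and SLC37A2 (0.33). Lower were SLC25A23 (-0.41), SLC19A1 (-0.34), SLC2A9 (-0.33) and SLC25A37 (-0.25). SLC37A2, SLC2A9 and SLC25A37 lost the call when 1 of 8, 12 and 11 of the 15 libraries was left out. SLC40A1, the iron exporter, is the one of these for which PBS cells stood above both species (13.3 ± 0.656 CPM against 10.5 and 11 with *E. coli* and 6.87 and 7.88 with *S. aureus* BEVs) while *E. coli* was the higher of them.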

How the results depend on the processing

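Of 698 recomputed counts 682 stayed within 1.5 times the reported ones, and of 7084 recomputed values of named genes 7036 kept direction and side of the limits, 34 lost the call, 14 gained one and 0 changed direction. Scaled to total counts, which moved the median of all genes by -0.161 to -0.114 against PBS, 20 members were down in SUC (13 in the report), 25 in SPL (15) and 16 in all 4 groups (9), and 7 were lower with *E. coli* BEVs by the adjusted p (4). That last count was 10 with DESeq2, 7 with no filter, 2 with only the groups compared and 2 to 6 with single libraries left out (2 without PBS1, PBS2, PBS3, EPL2, SPL1, SPL2 or SPL3). Left out together, an alternative chosen after seeing the data, EUC3, EPL1 and SUC3 gave 15 members higher and 18 lower with *E. coli* BEVs. Under none of the alternatives of this section, scaling to total counts among them, was the share of all genes counted. These counts therefore cannot be read as particular to the members. The causes were not tested. With single libraries left out, members up and down ranged over 21 to 24 and 27 to 29 in EUC, 23 to 26 and 19 to 25 in EPL, 15 to 18 and 10 to 13 in SUC, 21 to 23 and 14 to 16 in SPL, and 15 to 18 and 8 to 11 in all 4 groups. SLC7A2 was a DEG between the species (log2 difference 1.05, 1.04 and 1.05) without EPL1, SUC1 or SPL1.

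The replicate numbers of the labels showed no pairing of the libraries on average. Deviations from group means correlated by 0.00946 on average between same-numbered libraries (30 pairs, -0.452 to 0.525) and by -0.00359 between others. Still, 9 of 15 libraries correlated best with their own number, so whether the libraries are paired was not settled. With the replicate block 23 members were up and 29 down in EUC, 24 and 21 in EPL, 17 and 13 in SUC, and 21 and 16 in SPL. With 3 libraries a group, genes of few counts in PBS cells (SLC1A2, SLC30A4, SLC12A8) have the least certain folds.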

Other observations

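Transporters outside the SLC symbol were counted from a list of 36 SLCO and ABC genes, of which 35 were tested. As DEGs 7 were up and 4 down in EUC and 7 and 2 in EPL, while the *S. aureus* groups had 6 and 3 (SUC) and 6 and 1 (SPL). Of all genes 9.43% and 5.75% were up and down in EUC, 9.38% and 5.15% in EPL, 6.82% and 3.06% in SUC, and 7.76% and 3.70% in SPL. Up in all 4 groups were ABCB1, ABCB4, ABCC1, ABCC3, SLCO2B1 and TAP1, and ABCA7 was down in all 4. The organic anion importer SLCO2B1 went from 0.143 ± 0.126 CPM in PBS cells to 25.2 ± 5.30, 25.1 ± 2.06, 15.0 ± 3.78 and 22.1 ± 2.98 in EUC, EPL, SUC and SPL (mean ± SD, n = 3). TAP1, which brings peptides into the endoplasmic reticulum for antigen presentation, went from 48.3 ± 0.355 to 289 ± 4.05, 281 ± 6.75, 226 ± 13 and 244 ± 9.01 in the same order. The export pump ABCC1 went from 117 ± 5.91 to 534 ± 94.8, 528 ± 53.2, 396 ± 59.1 and 472 ± 17.9. The cholesterol exporter ABCA1 went from 29.8 ± 3 to 95.9 ± 27.7 in EUC and 109 ± 19.7 in EPL, and to 50.9 ± 15.2 in SUC and 39.7 ± 2.91 in SPL, where it did not pass the test (adjusted p 0.011 and 0.159).

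Of 23 genes listed for the amino acid response that the factor ATF4 drives, 22 were tested. In both *E. coli* groups 2 were up and 4 down, in SUC 1 was up and 3 down, and in SPL 2 were up and 3 down, to be read against the same shares of all genes. ATF5 was up in all 4 groups, from 58 ± 3.72 CPM to 270 ± 8.87 in EUC and 203 ± 11.2 in SUC. ALDH1L2, PSAT1 and VLDLR were down in all 4. PSAT1, an enzyme of serine synthesis, went from 98.5 ± 3.06 to 34.5 ± 3.92 in EUC and 45.3 ± 5.37 in SUC. ATF4 itself was at 247 ± 10.9 CPM in PBS cells and at 294 to 331 in the others (adjusted p at least 0.0103).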
